A study of Mus musculus with 12 samples.

Results

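A set of 10 genes of T cell help was followed across sorted lymph node (LN) T cells of 4 groups. They were taken by symbol from the 49585 genes of the count table: the TNF family ligands *Cd40lg*, *Tnfsf8* and *Tnfsf11*, the receptors *Cd28* and *Icos*, the surface ligand *Cd200*, the SLAM receptors *Slamf6* and *Cd84* with their adaptor *Sh2d1a*, and the transcription factor *Bcl6*. All 10 were found, and all 10 were among the 13118 genes that passed the filter on low counts. The rule took rows by symbol alone, but the genes were chosen with earlier results of these data known. Shares of all tested genes are therefore given beside the members for description only. One pair of groups was CD4+ and CD8+ T cells of B6 (C57BL/6) mice. The other pair was the CD8.1 and CD8.2 populations of CD8Dual mice, in which both *Cd4* loci were altered so that they encode CD8α.1 and CD8β in place of CD4, and in which the *Cd8* locus is intact and encodes CD8α.2 and CD8β. CD8.1 cells carry the co-receptor made from the altered *Cd4* locus and CD8.2 cells the one made from the *Cd8* locus. The mice were male and 6 to 10 weeks old according to the labels, while the study's methods give both sexes and a wider age range for its mice in general. Cells were sorted as TCRβ+CD62L+ by the labels, with CD44− added in the study's methods, and 3 samples, each a pool of sorted cells, made up a group by the labels. The labels do not say whether the samples of a group came from separate animals, so the p values measure the spread between these samples, which may be technical.

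Helper T cells act on B cells and dendritic cells by contact. CD40L, the product of *Cd40lg* and the gene mutated in X-linked hyper-IgM syndrome, binds CD40 on these cells and drives germinal centres, class switching and dendritic cell licensing. CD28 is the main costimulatory receptor of naive T cells, which binds CD80 and CD86, and ICOS is its inducible relative, which binds ICOS ligand. CD200 is a surface ligand that restrains myeloid cells through its receptor. SLAMF6 and CD84 are SLAM family receptors that bind themselves on a neighbouring cell and signal through SAP, the product of *Sh2d1a*, to hold T cells and B cells together. CD30 ligand (*Tnfsf8*) and RANKL (*Tnfsf11*) are further TNF family ligands, the latter known for osteoclast and lymph node development. BCL6 is the repressor that follicular helper T cells require. Many of these proteins are scarce on resting T cells and rise after activation.

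Total counts were 18667474 to 37110502 per sample, CD8.2 replicate 3 being the deepest. Levels are given as CPM, which are counts divided by the TMM-scaled library size, and the smallest level that the depth can show, 3 counts, was 0.0875 to 0.167 CPM, a limit that covers counting error only because PCR copies are not independent molecules. The labels held for the lineage factor ThPOK: *Zbtb7b* was at 159, 154 and 164 CPM in B6 CD4+, 1.19, 0.691 and 0.914 CPM in B6 CD8+, 117, 173 and 172 CPM in CD8.1 and 2.00, 2.11 and 1.60 CPM in CD8.2 cells. In bulk RNA, fewer cells that express a gene and less RNA per cell cannot be told apart. Changes were called with edgeR's quasi-likelihood test at a Benjamini-Hochberg adjusted p under 0.05 over all tested genes, and the study's own limits, a change of more than 5-fold with an unadjusted P under 0.05, were applied as a second rule.

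Positions are those of GENCODE M21 on the mouse genome GRCm38. *Cd28* (chromosome 1, bases 60716800 to 60773359 of the plus strand) and *Icos* (chromosome 1, bases 60977927 to 61000320 of the plus strand) stand in one cluster, with *Ctla4* between them and 204567 bases from the end of *Cd28* to the start of *Icos*. *Cd84* (chromosome 1, bases 171839697 to 171890718 of the plus strand) and *Slamf6* (chromosome 1, bases 171917515 to 171953170 of the plus strand) also stand side by side on chromosome 1, with 26796 bases between them. *Cd40lg* (chromosome X, bases 57212143 to 57224042 of the plus strand) and *Sh2d1a* (chromosome X, bases 42502453 to 42529330 of the plus strand) are X-linked. *Tnfsf8* lies on chromosome 4, bases 63831308 to 63861347 of the minus strand, *Tnfsf11* on chromosome 14, bases 78277445 to 78308043 of the minus strand, *Bcl6* on chromosome 16, bases 23965052 to 23988852 of the minus strand and *Cd200* on chromosome 16, bases 45382135 to 45409053 of the minus strand. Exons of *Sh2d1a* overlap those of *Tenm1* on the other strand, and exons of *Bcl6* overlap *Gm37419* on the other strand. No source used here says that strand was used in counting, so reads of these overlaps could be counted for either gene.

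Promoter windows were at hand from RefSeq (GRCm38.p6) for 6 of the 10 genes, *Cd84*, *Slamf6*, *Tnfsf8*, *Tnfsf11*, *Bcl6* and *Cd200*. Those of *Tnfsf11*, *Cd200* and *Bcl6* are shown because these genes were higher in CD4+ than in CD8+ and in CD8.1 than in CD8.2 cells, and that of *Cd84* because its level was not called different in either comparison. Each is the 250 bases before the RefSeq start, 5′ to 3′ on the strand of the gene, and contains no exon of GENCODE M21. Capitals mark matches, on either strand, to GGAAA (NFAT core), TGNGGT (RUNX), TGANTCA (AP-1) or TTCNNNGAA (STAT), and no match overlapped another.
Tnfsf11 (chr14:78308044-78308293, minus strand): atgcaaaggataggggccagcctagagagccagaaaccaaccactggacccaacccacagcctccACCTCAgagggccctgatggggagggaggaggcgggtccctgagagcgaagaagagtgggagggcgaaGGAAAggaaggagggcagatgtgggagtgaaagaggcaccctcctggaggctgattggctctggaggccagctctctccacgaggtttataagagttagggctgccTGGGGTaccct
Cd200 (chr16:45409054-45409303, minus strand): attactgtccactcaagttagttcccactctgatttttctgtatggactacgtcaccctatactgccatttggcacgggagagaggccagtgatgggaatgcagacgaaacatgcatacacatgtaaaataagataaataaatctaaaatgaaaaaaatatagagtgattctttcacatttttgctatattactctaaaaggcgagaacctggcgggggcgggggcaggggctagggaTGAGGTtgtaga
Bcl6 (chr16:23988853-23989102, minus strand): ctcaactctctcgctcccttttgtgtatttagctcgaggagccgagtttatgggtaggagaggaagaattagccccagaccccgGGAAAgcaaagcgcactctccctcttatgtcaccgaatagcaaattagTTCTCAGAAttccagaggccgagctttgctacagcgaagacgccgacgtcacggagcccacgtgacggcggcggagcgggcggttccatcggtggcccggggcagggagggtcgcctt
Cd84 (chr1:171839447-171839696, plus strand): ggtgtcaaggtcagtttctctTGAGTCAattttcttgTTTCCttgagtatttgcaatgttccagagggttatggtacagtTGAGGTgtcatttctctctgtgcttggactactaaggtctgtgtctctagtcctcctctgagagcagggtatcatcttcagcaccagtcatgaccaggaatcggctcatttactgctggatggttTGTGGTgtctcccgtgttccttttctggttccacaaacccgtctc

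The *Tnfsf11* window held 1 NFAT core match and 2 RUNX matches, of which one began 11 bases before the start. The *Cd200* window held 1 RUNX match, which began 12 bases before the start. The *Bcl6* window held 1 NFAT core match and 1 STAT match, and 21 CpG dinucleotides against 4 in *Tnfsf11*, 6 in *Cd200* and 3 in *Cd84*. The *Cd84* window held 1 NFAT core match, 2 RUNX matches and 1 AP-1 match. Of 32851 RefSeq windows of 250 bases, 55.6% held the NFAT core, 40.1% the RUNX letters, 6.75% the AP-1 letters and 7.02% the STAT letters. The RUNX letters allow any base at N, where the RUNX core has C or T. Of the RUNX matches shown, only the *Cd84* match that began 45 bases before the start (TGTGGT) has that core. The matches are letters in a window and no binding was measured.

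Of the 10 genes, 6 were higher in B6 CD4+ than in B6 CD8+ cells, namely *Cd40lg*, *Tnfsf11*, *Cd200*, *Cd28*, *Bcl6* and *Icos*, and *Tnfsf8* was lower. The differences were 124-fold for *Cd40lg*, 7.19-fold for *Tnfsf11*, 4.45-fold for *Cd200*, 2.65-fold for *Cd28*, 1.66-fold for *Bcl6* and 1.51-fold for *Icos*. Over all tested genes 11.4% were called higher and 11.7% lower in this comparison. Between CD8.1 and CD8.2 cells the calls again were 6 higher and 1 lower, and each of these genes was called in the direction it had in B6 mice. Over all tested genes 14.9% were called higher and 13.8% lower in CD8.1 cells. *Slamf6*, *Cd84* and *Sh2d1a* were not called in either comparison. The 3 samples of each side did not overlap for 7 members in B6 mice (39.0% of all tested genes) and for 8 members in CD8Dual mice (40.7%). By the study's limits 2 members, *Cd40lg* and *Tnfsf11*, passed in each strain, where 1.64% of all tested genes passed as higher in B6 and 2.24% in CD8Dual mice. The median log2 fold change of the members was 0.66 in B6 and 0.79 in CD8Dual mice, and that of all tested genes −0.0011 and −0.0047.

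**Figure D1:**
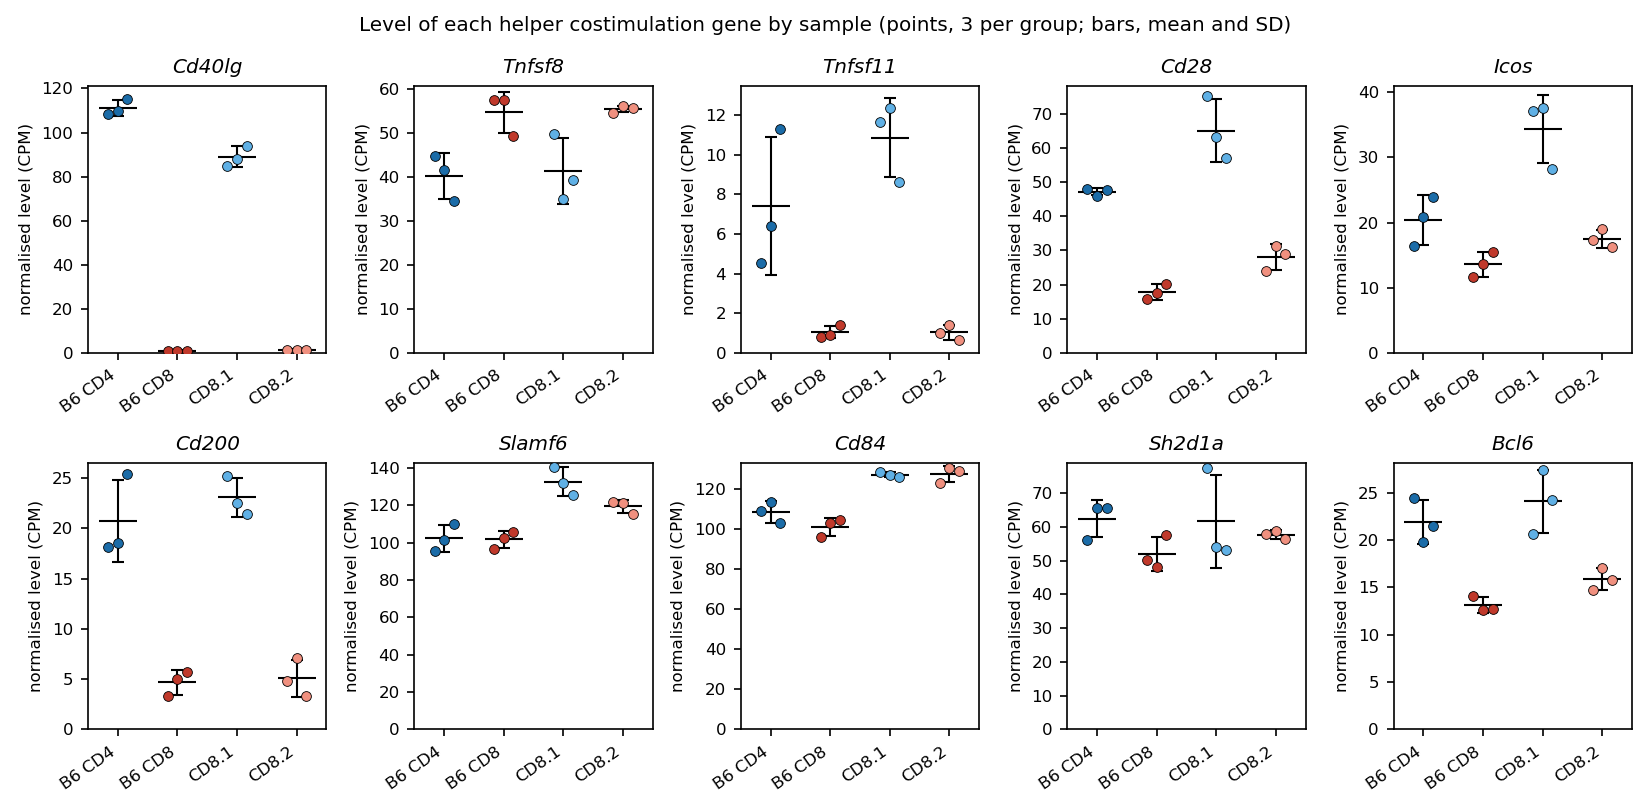
Level of each gene in CPM (counts divided by the scaled library size; vertical axes, each from 0) in the 4 groups; points are the 3 samples of a group and bars the mean and SD. *Cd40lg* separates the helper groups (84.8 to 115 CPM) from the cytotoxic groups (0.674 to 1.50 CPM), and all CD8Dual samples lie above all B6 samples for *Slamf6* and *Cd84*.

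To compare genes with each other, levels were divided by the length of the union of their GENCODE exons. Per kilobase, *Cd40lg* was the highest of the 10 genes in B6 CD4+ cells at 88.9 ± 3.02 CPM per kb (SD, n = 3) and in CD8.1 cells at 71.2 ± 3.73 CPM per kb. *Cd84* followed in both groups at 17.3 ± 0.847 and 20.3 ± 0.167 CPM per kb. In the cytotoxic groups *Cd84* was the highest, at 16.1 ± 0.733 CPM per kb in B6 CD8+ and 20.3 ± 0.620 CPM per kb in CD8.2 cells, and *Tnfsf8* the next. *Tnfsf11* was the lowest there, at 0.466 ± 0.139 and 0.459 ± 0.161 CPM per kb, and *Cd40lg* ranked 9 of 10. T cells of both lineages held SLAM receptor and CD30 ligand transcripts, and *Cd40lg* stood first in the 2 helper groups alone. These lengths are annotation lengths and take no account of which transcript is used.

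The level of *Cd40lg* was 108, 109.8 and 115 CPM in B6 CD4+, 0.983, 0.982 and 0.674 CPM in B6 CD8+, 84.8, 88.1 and 94.0 CPM in CD8.1 and 1.19, 1.50 and 1.43 CPM in CD8.2 cells. Every helper sample was above every cytotoxic sample, and within each lineage the B6 and CD8Dual samples did not overlap. The log2 fold change of CD4+ against CD8+ cells was 6.95 (SE 0.124, edgeR adjusted p = 2.85e-15) in B6 mice, and that of CD8.1 against CD8.2 cells was 6.01 (SE 0.116, edgeR adjusted p = 3.04e-14). The gene was represented by 2379 to 2713 counts in B6 CD4+ samples and 1777 to 1993 in CD8.1 samples, against 14 to 27 in B6 CD8+ and 27 to 49 in CD8.2 samples. In order of level the groups were B6 CD4+, CD8.1, CD8.2 and B6 CD8+. CD8.1 cells were lower than B6 CD4+ cells, with a log2 fold change of −0.32 (SE 0.0803, edgeR adjusted p = 0.0176), and this call was lost without B6 CD4 replicate 2 (−0.33, adjusted p = 0.0533), without CD8.1 replicate 2 (−0.31, adjusted p = 0.0590) and when only these 2 groups were fitted (−0.33, adjusted p = 0.0641). CD8.2 cells stood above B6 CD8+ cells by 0.62 (SE 0.178, edgeR adjusted p = 0.0639), which was not called, although it was without CD8.1 replicate 1 (0.62, adjusted p = 0.0443).

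The lineage difference of *Cd40lg* was smaller in CD8Dual than in B6 mice. The difference between the 2 log2 fold changes, tested as an interaction, was −0.94 (95% interval −1.35 to −0.52, edgeR adjusted p = 0.0179), a lineage difference 1.92 times larger in B6 mice, and *Cd40lg* was the only one of the 10 genes called. Over all tested genes 0.290% were called lower and 1.87% in either direction. The call was lost with limma-voom (−0.95, adjusted p = 0.143), without B6 CD8 replicate 3 (−0.80, adjusted p = 0.0533), without CD8.2 replicate 2 (−0.89, adjusted p = 0.0576) and without CD8.2 replicate 3 (−0.89, adjusted p = 0.103). Of its 2 sides, CD8.1 against B6 CD4+ (−0.32) was called and CD8.2 against B6 CD8+ (0.62) was not, as given above. The side that was not called is the larger, and it rests on 14 to 27 counts per B6 CD8+ and 27 to 49 per CD8.2 sample. As a share of the helper mean of the same strain, the cytotoxic mean of *Cd40lg* was 0.791% in B6 and 1.54% in CD8Dual mice. The same share was 0.586% and 1.24% for *Zbtb7b*, 0.0252% and 2.96% for *Cd4*, whose CD8Dual transcript comes from the altered locus, and 0.868% and 0.886% for *Foxp3*. *Zbtb7b* (log2 fold change 1.01 (SE 0.270, edgeR adjusted p = 0.0335)) and *Cd4* (2.65 (SE 0.282, edgeR adjusted p = 6.43e-05)) were called higher in CD8.2 than in B6 CD8+ cells. *Runx3*, the cytotoxic lineage factor, was at 105, 102 and 97.5 CPM in B6 CD8+ and 70.6, 74.7 and 77.3 CPM in CD8.2 cells, a difference of −0.45 (SE 0.137, edgeR adjusted p = 0.0556) that was not called. The part of such helper lineage transcripts in the *Cd40lg* result was not tested.

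**Figure D2:**
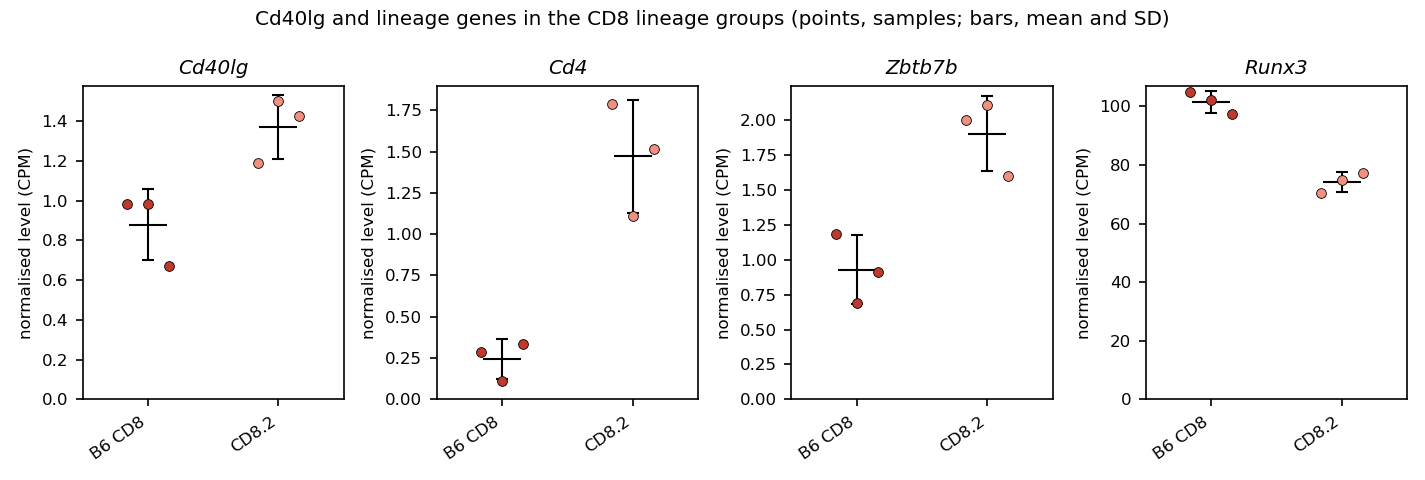
*Cd40lg*, *Cd4*, *Zbtb7b* and *Runx3* in the cytotoxic groups, in CPM (vertical axes, each from 0); points are the 3 samples of a group and bars the mean and SD. The CD8.2 samples lie above the B6 CD8 samples for *Cd40lg* (1.19 to 1.50 against 0.674 to 0.983 CPM), *Cd4* and *Zbtb7b*, and below them for *Runx3*.

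RANKL transcripts followed the lineage in both strains. *Tnfsf11* was at 4.55, 6.38 and 11.3 CPM in B6 CD4+, 0.819, 0.909 and 1.40 CPM in B6 CD8+, 11.6, 12.3 and 8.60 CPM in CD8.1 and 1.02, 1.39 and 0.671 CPM in CD8.2 cells. The helper samples lay above all cytotoxic samples, and the B6 CD4+ samples were spread from 4.55 to 11.3 CPM. Its log2 fold change was 2.85 (SE 0.343, edgeR adjusted p = 1.40e-05) in B6 and 3.46 (SE 0.344, edgeR adjusted p = 2.23e-06) in CD8Dual mice. CD8.1 and B6 CD4+ samples overlapped, and their difference was not called at 0.55 (95% interval −0.047 to 1.15, edgeR adjusted p = 0.209), although it was without B6 CD4 replicate 3 (0.97, adjusted p = 0.0244) and without the filter on low counts (0.54, adjusted p = 0.0444). CD8.2 and B6 CD8+ cells differed by −0.066 (95% interval −0.94 to 0.81, edgeR adjusted p = 0.944), at 20 to 29 counts per sample, and a difference within that interval was not detectable at this depth.

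CD30 ligand was the member with the opposite direction. *Tnfsf8* was at 44.8, 41.5 and 34.6 CPM in B6 CD4+, 57.5, 57.4 and 49.4 CPM in B6 CD8+, 49.8, 34.9 and 39.4 CPM in CD8.1 and 54.7, 56.2 and 55.7 CPM in CD8.2 cells. The cytotoxic samples were the higher ones in both strains, and the samples of a strain did not overlap. The log2 fold change was −0.44 (SE 0.121, edgeR adjusted p = 0.0143) in B6 and −0.42 (SE 0.122, edgeR adjusted p = 0.0166) in CD8Dual mice. Each call depended on single libraries. In B6 mice it was lost without B6 CD4 replicate 3 (−0.34, adjusted p = 0.0932), B6 CD8 replicate 1 (−0.40, adjusted p = 0.0729) or B6 CD8 replicate 2 (−0.41, adjusted p = 0.0743), and in CD8Dual mice without CD8.1 replicate 2 (−0.32, adjusted p = 0.0854), CD8.1 replicate 3 (−0.39, adjusted p = 0.0516) or CD8.2 replicate 1 (−0.44, adjusted p = 0.0521). Between strains the differences were 0.038 (95% interval −0.22 to 0.30, edgeR adjusted p = 0.876) in the helper and 0.018 (95% interval −0.24 to 0.27, edgeR adjusted p = 0.948) in the cytotoxic lineage.

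Of 15 other TNF superfamily ligands 8 could be tested, and 4 were higher and 2 lower in the helper cells of each strain. *Fasl*, the death ligand, was higher by 2.07 in B6 (edgeR adjusted p = 8.78e-06) and 3.13 in CD8Dual mice (edgeR adjusted p = 4.99e-07) on the log2 scale. *Tnf* (1.17 and 1.28) and *Lta* (0.90 and 1.15), both cytokine genes of one locus, were higher as well. *Tnfsf14*, which encodes LIGHT, was lower in B6 CD4+ cells by −2.17 (edgeR adjusted p = 1.94e-06), and its lineage difference was shifted by 1.54 in CD8Dual mice (edgeR adjusted p = 0.0103). The list's median was 0.50 in B6 and 1.07 in CD8Dual mice. Against B6 CD4+ cells, CD8.1 cells were higher for *Tnfsf14* (1.18) and *Lta* (0.46), and against B6 CD8+ cells CD8.2 cells were lower for *Fasl* (−1.36).

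*Cd28* was graded over the 4 groups, with levels of 48.0, 46.0 and 47.7 CPM in B6 CD4+, 15.7, 17.6 and 20.3 CPM in B6 CD8+, 75.2, 63.1 and 56.9 CPM in CD8.1 and 23.9, 31.3 and 28.8 CPM in CD8.2 cells. No pair of groups overlapped, and all 3 steps of the order CD8.1, B6 CD4+, CD8.2 and B6 CD8+ were called (13.6% of all tested genes were called higher in B6 CD4+ than CD8.2 cells). The log2 fold change between lineages was 1.41 (SE 0.124, edgeR adjusted p = 4.35e-07) in B6 and 1.22 (SE 0.120, edgeR adjusted p = 2.14e-06) in CD8Dual mice, so both lineages held the transcript at a level that differed 2.65-fold and 2.33-fold. Both CD8Dual groups were above their B6 counterparts. The difference was 0.46 (SE 0.118, edgeR adjusted p = 0.0192) for CD8.1 against B6 CD4+ and 0.65 (SE 0.124, edgeR adjusted p = 0.00531) for CD8.2 against B6 CD8+ cells. The first was lost without B6 CD4 replicate 1 (0.47, adjusted p = 0.0636) or B6 CD4 replicate 2 (0.44, adjusted p = 0.0708), and the second was kept in all 19 other fits, although neither passed the study's 5-fold limit.

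*Icos* was at 16.4, 20.9 and 23.9 CPM in B6 CD4+, 11.6, 13.7 and 15.4 CPM in B6 CD8+, 37.1, 37.6 and 28.3 CPM in CD8.1 and 17.4, 19.0 and 16.3 CPM in CD8.2 cells. The CD8.1 samples were above all others, the B6 CD4+ and CD8.2 samples overlapped, and the B6 CD8+ samples were the lowest. The log2 fold change was 0.59 (SE 0.150, edgeR adjusted p = 0.00891) in B6 and 0.97 (SE 0.146, edgeR adjusted p = 0.000142) in CD8Dual mice, and the difference between these was 0.38 (95% interval −0.062 to 0.83, edgeR adjusted p = 0.457). CD8.1 exceeded B6 CD4+ cells by 0.75 (SE 0.145, edgeR adjusted p = 0.00450), a call kept in all 19 other fits, although the difference was under the study's 5-fold limit. CD8.2 exceeded B6 CD8+ cells by 0.37 (SE 0.151, edgeR adjusted p = 0.151), which was not called, but it was without the filter on low counts (0.37, adjusted p = 0.0387) and with only these 2 groups fitted (0.37, adjusted p = 0.0362). B6 CD4+ stood above CD8.2 cells by 0.22 (95% interval −0.093 to 0.54, edgeR adjusted p = 0.300), which was within the spread.

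*Cd200* was at 18.1, 18.6 and 25.4 CPM in B6 CD4+, 3.28, 5.05 and 5.68 CPM in B6 CD8+, 25.3, 22.6 and 21.5 CPM in CD8.1 and 4.81, 7.06 and 3.32 CPM in CD8.2 cells. Helper and cytotoxic samples did not overlap in either strain, and the strains overlapped in both lineages. Between lineages the log2 difference was 2.15 (SE 0.232, edgeR adjusted p = 4.50e-06) in B6 and 2.23 (SE 0.232, edgeR adjusted p = 3.72e-06) in CD8Dual mice. Between strains it was 0.16 (95% interval −0.29 to 0.60, edgeR adjusted p = 0.666) in the helper and 0.079 (95% interval −0.45 to 0.61, edgeR adjusted p = 0.890) in the cytotoxic lineage.

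The relatives and partners of these surface proteins were counted from lists. All 3 further receptors of the CD28 family were higher in the helper cells of both strains. *Pdcd1* (PD-1) differed by 2.52 in B6 and 2.55 in CD8Dual mice, *Ctla4* by 2.97 and 2.60, and *Btla* by 0.86 and 0.62 on the log2 scale. *Ctla4*, the neighbour of *Cd28* and *Icos* whose product competes for CD80 and CD86, was at 6.28, 9.27 and 11.9 CPM in B6 CD4+, 1.11, 1.31 and 1.06 CPM in B6 CD8+, 29.5, 23.7 and 20.1 CPM in CD8.1 and 3.45, 4.45 and 4.23 CPM in CD8.2 cells. It was higher in CD8Dual mice in both lineages, by 1.42 (SE 0.194, edgeR adjusted p = 0.000415) in CD8.1 and 1.79 (SE 0.261, edgeR adjusted p = 0.000763) in CD8.2 cells. All 3 genes of this cluster had their highest group mean in CD8.1 cells, and so did *Tnfsf11*, *Cd200*, *Slamf6* and *Bcl6*, which lie outside it. Of 8 partners on other cells, 6 could be tested, of which 2 were higher and 1 lower in B6 CD4+ cells and 3 were higher and 1 lower in CD8.1 cells. *Cd200r1*, the receptor for CD200, was itself higher in helper cells (log2 fold change 3.58 in B6 and 2.72 in CD8Dual mice), and *Cd86* was lower (−1.18 and −1.18). *Tnfrsf8*, which encodes CD30, was called higher in helper cells as well, from 9, 10 and 27 counts in B6 CD4+ and 56, 61 and 15 in CD8.1 samples against 0 to 2 in the cytotoxic samples. *Cd80* was called higher in CD8.1 cells than in the CD8.2 and B6 CD4+ groups, from 24, 46 and 16 counts against 0 to 7. Of 11 genes of CD28 and ICOS signalling and *Icos* mRNA decay, 3 were lower in B6 CD4+ cells (*Pik3cd* −0.51, *Grap2* −0.46, *Malt1* −0.35), and 1 was higher and 4 lower in CD8.1 than CD8.2 cells. *Pik3cd*, a kinase that both receptors use, was also lower in both CD8Dual groups than in their B6 counterparts (−0.30 in CD8.1 and −0.33 in CD8.2 cells).

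**Figure D3:**
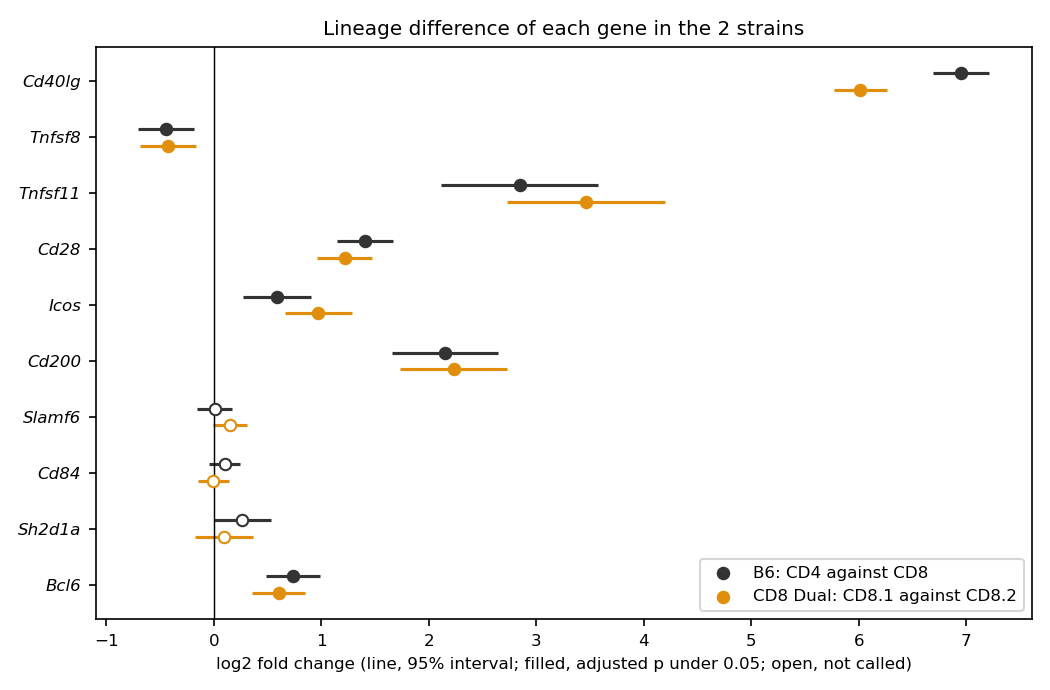
Log2 fold change (horizontal axis) of each gene between CD4+ and CD8+ cells of B6 mice (dark) and between CD8.1 and CD8.2 cells of CD8Dual mice (orange); lines are 95% intervals, filled points have an adjusted p under 0.05 and open points do not. *Cd40lg* lies farthest right at 6.95 and 6.01, *Tnfsf8* alone is called to the left of 0, and *Slamf6*, *Cd84* and *Sh2d1a* are open in both strains.

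*Slamf6* and *Cd84* were not called between lineages in either strain, and between strains *Slamf6* was called in the helper lineage and *Cd84* in both. *Slamf6* was at 95.5, 102 and 109.8 CPM in B6 CD4+, 96.9, 102 and 106 CPM in B6 CD8+, 141, 132 and 125 CPM in CD8.1 and 122, 121 and 115 CPM in CD8.2 cells. B6 CD4+ and CD8+ samples covered the same range, and every CD8Dual sample was above every B6 sample. The lineage difference was 0.0079 (95% interval −0.15 to 0.17, edgeR adjusted p = 0.962) in B6 and 0.15 (95% interval −0.0065 to 0.31, edgeR adjusted p = 0.143) in CD8Dual mice. CD8.1 exceeded B6 CD4+ cells by 0.37 (SE 0.0744, edgeR adjusted p = 0.00528), a call lost when these 2 groups were fitted alone (0.37, adjusted p = 0.0557) and kept in the other 18 fits, although the difference was under the study's 5-fold limit. CD8.2 exceeded B6 CD8+ cells by 0.23 (SE 0.0743, edgeR adjusted p = 0.0709), which was not called but was without CD8.1 replicate 1 (0.23, adjusted p = 0.0269), with DESeq2's Wald test (0.23, adjusted p = 0.0316) and with these 2 groups alone (0.23, adjusted p = 0.0169).

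*Cd84* was at 109, 113 and 103 CPM in B6 CD4+, 95.7, 103 and 104 CPM in B6 CD8+, 128, 127 and 126 CPM in CD8.1 and 123, 130.5 and 129 CPM in CD8.2 cells. Every CD8Dual sample was again above every B6 sample, and the lineages overlapped in both strains. The lineage difference was 0.10 (95% interval −0.04 to 0.25, edgeR adjusted p = 0.320) in B6 and −0.0039 (95% interval −0.15 to 0.14, edgeR adjusted p = 0.973) in CD8Dual mice, the second too close to 0 to have a stable sign. CD8.2 exceeded B6 CD8+ cells by 0.34 (SE 0.0669, edgeR adjusted p = 0.00683), a call lost without B6 CD8 replicate 1 (0.29, adjusted p = 0.0520). CD8.1 exceeded B6 CD4+ cells by 0.23 (SE 0.0669, edgeR adjusted p = 0.0357). That call did not last: it was lost in 13 of 19 other fits, among them the removal of any library but CD8.1 replicate 1 (11 libraries, adjusted p = 0.0528 to 0.132).

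*Sh2d1a*, the adaptor of both receptors, was at 56.2, 65.7 and 65.6 CPM in B6 CD4+, 50.2, 48.1 and 57.6 CPM in B6 CD8+, 77.6, 54.1 and 53.2 CPM in CD8.1 and 58.0, 58.8 and 56.5 CPM in CD8.2 cells. The groups overlapped in all 4 comparisons, and CD8.1 replicate 1 lay far above the other CD8.1 samples. Its differences, not called, were 0.27 (95% interval −0.0013 to 0.54, edgeR adjusted p = 0.154) between B6 lineages, 0.094 (95% interval −0.17 to 0.36, edgeR adjusted p = 0.620) between CD8Dual lineages, −0.02 (95% interval −0.29 to 0.25, edgeR adjusted p = 0.938) in CD8.1 against B6 CD4+ and 0.15 (95% interval −0.12 to 0.42, edgeR adjusted p = 0.503) in CD8.2 against B6 CD8+ cells. Without CD8.1 replicate 1 the B6 lineage difference was called (0.27, adjusted p = 0.0213).

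Of 10 SLAM relatives and SAP partners in the table, 5 could be tested. *Slamf1* was higher in helper cells (log2 fold change 1.26 in B6 and 1.08 in CD8Dual mice), and *Slamf7* (−3.29 and −1.33) and *Ly9* (−0.44 and −0.38) were lower. *Cd48* was lower in B6 CD4+ cells (−0.48). *Slamf7*, a receptor of cytotoxic cells, was at 19.9, 19.5 and 32.8 CPM in B6 CD8+ and 8.34, 11.8 and 8.08 CPM in CD8.2 cells, a difference of −1.36 (SE 0.208, edgeR adjusted p = 0.00101).

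*Bcl6* was at 24.4, 19.7 and 21.5 CPM in B6 CD4+, 14.1, 12.6 and 12.7 CPM in B6 CD8+, 20.6, 27.3 and 24.2 CPM in CD8.1 and 14.7, 17.1 and 15.7 CPM in CD8.2 cells. The helper samples were above all cytotoxic samples, and B6 CD4+ and CD8.1 samples overlapped. Between lineages it differed by 0.74 (SE 0.118, edgeR adjusted p = 0.000231) in B6 and 0.61 (SE 0.116, edgeR adjusted p = 0.00114) in CD8Dual mice. CD8.1 differed from B6 CD4+ cells by 0.14 (95% interval −0.11 to 0.38, edgeR adjusted p = 0.459) and CD8.2 from B6 CD8+ cells by 0.27 (95% interval 0.014 to 0.52, edgeR adjusted p = 0.187), and neither was called.

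Genes of the follicular helper programme other than the members were counted next. Of 18 listed, 15 could be tested, 9 were higher and 1 lower in B6 CD4+ than in B6 CD8+ cells, and 10 were higher and 1 lower in CD8.1 than CD8.2 cells. *Maf*, a factor for IL-21 production, was at 9.05, 8.45 and 9.23 CPM in B6 CD4+ and 15.7, 12.9 and 12.6 CPM in CD8.1 cells, and differed by 4.66 (SE 0.241, edgeR adjusted p = 8.39e-10) in B6 and 4.39 (SE 0.216, edgeR adjusted p = 6.30e-10) in CD8Dual mice. *Irf4* was higher in B6 CD4+ than CD8+ cells (1.66), and *Tigit* (3.60) and *Tox2* (2.98) in CD8.1 than CD8.2 cells. In the other strain, *Irf4* was at 30.6 to 39.0 CPM in CD8.1 and 15.0 to 19.8 CPM in CD8.2 cells. *Tox2* was at 1.21 to 1.82 CPM in B6 CD4+ and 0.0409 to 0.109 CPM in B6 CD8+ cells, between which *Tigit* overlapped. *Cxcr5*, the receptor that takes T cells into B cell follicles, was the gene called lower in B6 CD4+ cells. It was at 11.5, 12.6 and 11.6 CPM in B6 CD4+, 28.0, 27.2 and 30.4 CPM in B6 CD8+, 27.7, 32.0 and 30.1 CPM in CD8.1 and 45.4, 52.6 and 47.4 CPM in CD8.2 cells. It was lower by −1.26 in B6 CD4+ than CD8+ cells (edgeR adjusted p = 5.62e-08) and higher in both CD8Dual groups than in their B6 counterparts, by 1.33 in CD8.1 (edgeR adjusted p = 8.23e-07) and 0.76 in CD8.2 cells (edgeR adjusted p = 0.000129). Of 8 genes that oppose BCL6 or mark cells outside follicles, 5 were higher and 2 lower in B6 CD4+ cells, and 5 were higher in CD8.1 cells. *Prdm1*, which encodes BLIMP1, the antagonist of BCL6, was higher in helper cells together with *Bcl6* (log2 fold change 2.48 in B6 and 1.67 in CD8Dual mice). *Gpr183* was higher as well (1.08 and 0.95). The list median was 0.47 and 0.60 for the follicular helper genes, and 0.40 and 0.21 for the antagonists. *Pdcd1* and *Btla* are also in the list of CD28 family receptors.

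CD8.1 cells were higher than B6 CD4+ cells for 4 members (*Icos*, *Cd28*, *Slamf6* and *Cd84*) and lower for 1 (*Cd40lg*), where 6.94% of all tested genes were called higher and 5.82% lower. CD8.2 cells were higher than B6 CD8+ cells for 2 members (*Cd28* and *Cd84*) and lower for 0 by edgeR's test (0 at an unadjusted p under 0.05 and 0 by DESeq2 or limma-voom), where 3.29% of all tested genes were called higher and 4.66% lower. The samples did not overlap for 5 members in the first comparison (25.5% of all tested genes) and for 6 in the second (36.3%). In the second these were *Cd40lg*, *Cd28*, *Icos*, *Slamf6*, *Cd84* and *Bcl6*, each with all CD8.2 samples above all B6 CD8+ samples. The shares of all tested genes count both directions, and the share for the higher direction alone is not given here. No member passed the study's limits in either comparison, where 0.419% and 0.313% of all tested genes passed as higher, and the largest rise was 1.68-fold, for *Icos* in CD8.1 cells. The median log2 fold change of the members was 0.19 in the helper and 0.25 in the cytotoxic lineage, against 0.0025 and −0.0035 over all tested genes.

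**Figure D4:**
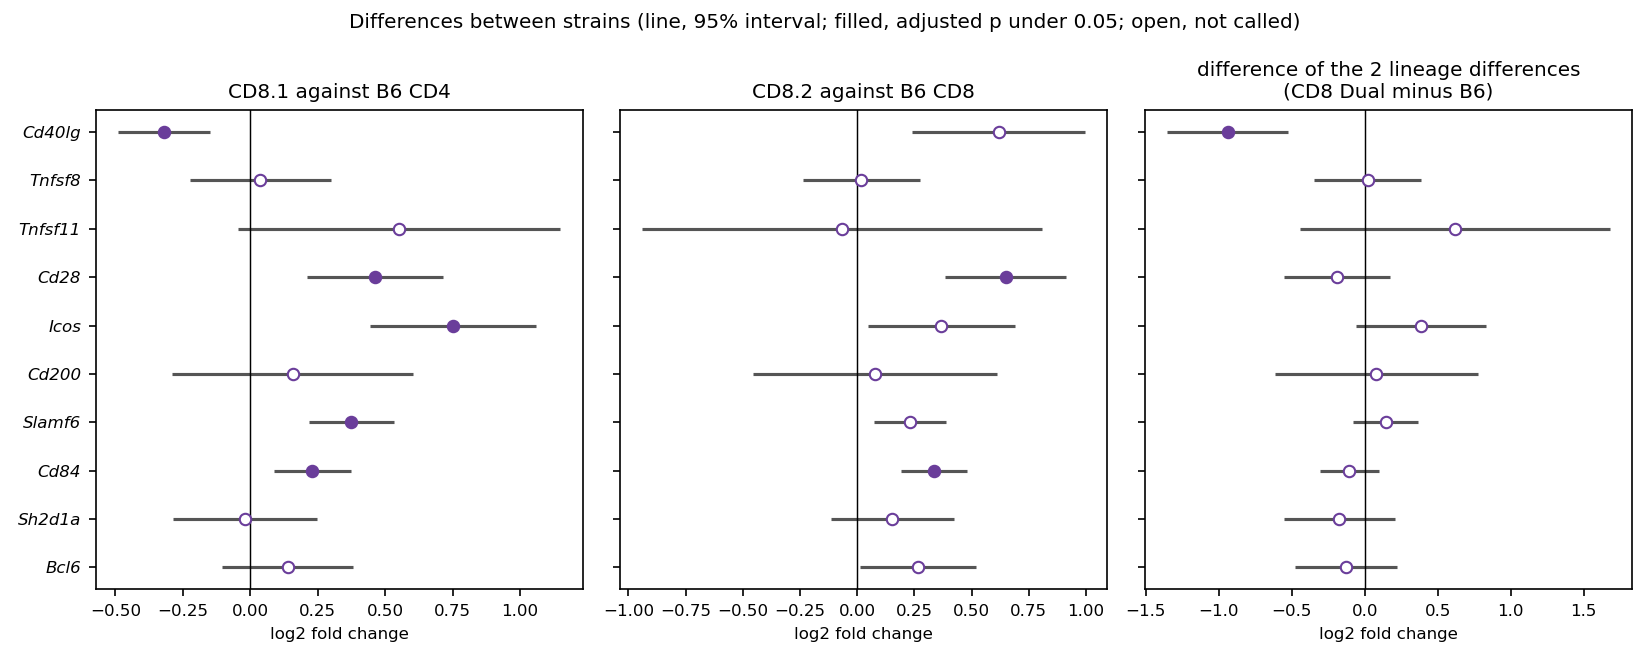
Log2 fold change (horizontal axes) of each gene of CD8.1 against B6 CD4 (left), of CD8.2 against B6 CD8 (middle) and the difference of the lineage differences, CD8Dual minus B6 (right); lines are 95% intervals, filled points have an adjusted p under 0.05 and open points do not. *Cd28* and *Cd84* are filled and above 0 in both strain panels, *Cd40lg* is filled and below 0 on the left (−0.32), and it is the one filled point on the right (−0.94).

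Markers of other cells moved with both lineage and strain. Between lineages, 7 of 8 regulatory T cell markers were higher in B6 CD4+ than CD8+ cells (summed level 188 to 282 against 72.4 to 77.3 CPM) and 8 of 8 in CD8.1 than CD8.2 cells (502 to 566 against 70.5 to 75.9 CPM). Of 7 memory and effector markers 6 were lower in B6 CD4+ cells (131 to 164 against 1473 to 1830 CPM), and 5 were lower and 1 higher in CD8.1 than CD8.2 cells (336 to 381 against 974 to 1003 CPM). The highest of this list in B6 CD8+ cells were *Ly6c2* (mean 765 CPM) and *Il2rb* (mean 473 CPM). In bulk RNA the list cannot tell memory cells from expression of these genes by the CD8 lineage itself. Of 8 B cell markers 6 were higher and 1 lower in B6 CD4+ cells (79.8 to 98.5 against 63.5 to 78.4 CPM), and 3 were higher in CD8.1 than CD8.2 cells (110 to 170 against 75.5 to 137 CPM). The part of these cells in the lineage differences of the members was not tested. Between strains the same lists were counted. All 8 regulatory T cell markers had higher levels in CD8.1 than B6 CD4+ cells, with a summed level of 502 to 566 CPM against 188 to 282 CPM, and *Foxp3* was at 102, 149 and 168 against 32.6, 37.8 and 44.6 CPM. In the same comparison 6 of 7 memory and effector markers were higher, with a summed level of 336 to 381 against 131 to 164 CPM, and 2 of 8 B cell markers, with 110 to 170 against 79.8 to 98.5 CPM. Of 8 myeloid and dendritic cell markers 5 could be tested and 2 were higher, with a summed level of 13.1 to 17.2 against 3.82 to 7.27 CPM. Of 6 NK and NKT cell markers 4 could be tested and 1 was higher, with a summed level of 3.48 to 5.04 against 0.955 to 2.38 CPM. *Ctla4* is one of the 8 regulatory T cell markers. None of the markers of the regulatory, memory and B cell lists was at 0 in all samples of a group, and *Cd14* was at 0 in all B6 CD8+ and CD8.2 samples. The sort on TCRβ was meant to leave out B cells and myeloid cells. The CD44− gate of the study's methods, which the labels do not give, was meant to leave out memory cells. Transcripts of these lists were present at the levels given here, and how far the sort left such cells out was not tested here. Between CD8.2 and B6 CD8+ cells, 3 of 8 B cell markers were higher (summed level 75.5 to 137 against 63.5 to 78.4 CPM), 2 of 8 regulatory T cell markers were higher (70.5 to 75.9 against 72.4 to 77.3 CPM), and 3 of 7 memory and effector markers were lower (974 to 1003 against 1473 to 1830 CPM). Of the 5 tested myeloid and dendritic cell markers 1 was higher and 1 lower (8.60 to 21.1 against 6.84 to 8.85 CPM). Of the 4 tested NK and NKT cell markers 1 was lower (4.14 to 5.11 against 6.67 to 9.24 CPM). The part of these cells in the strain differences of *Icos*, *Cd28*, *Cd84*, *Slamf6* and *Cd40lg* was not tested. Of 6 markers of naive T cells 1, *Ccr7* (log2 fold change 0.31), was called higher in CD8.2 than in B6 CD8+ cells.

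Likeness of pattern was described by Pearson's r of log2 CPM (prior count 2) over the 12 samples, which fall into lineage and strain groups, and genes that share a group difference share a high r. The 5 genes most like *Cd40lg* among all tested genes were *St8sia6* (0.997), *Zbtb7b* (0.996), *Trib2* (0.996), *Tmem154* (0.994) and *Itgb3* (0.994), of which *Zbtb7b* encodes ThPOK. Those most like *Tnfsf11* were *Marcksl1* (0.985), *Cd200* (0.984) and *Sord* (0.982), and those most like *Cd200* were *Tnfsf11* (0.984), *St6gal1* (0.979) and *Birc3* (0.979), so *Tnfsf11* and *Cd200* are each among the 3 nearest to the other. For *Cd28* they were *Cyp51* (0.988), *Adipor2* (0.984) and *Zfp280b* (0.982), for *Icos* *Cpped1* (0.974), *Fdft1* (0.972) and *Iglc3* (0.970), for *Bcl6* *Csrnp1* (0.968), *Coro7* (0.965) and *Dbp* (0.964) and for *Tnfsf8* *Gch1* (0.962), *Efr3a* (0.962) and *Slc25a30* (0.961). *Cyp51* and *Fdft1* are enzymes of sterol synthesis, and *Iglc3* encodes an immunoglobulin light chain constant region. Among the 6 members that were higher in helper cells, r ranged from 0.734 to 0.984 over the 15 pairs, and that of *Tnfsf8* with them from −0.869 to −0.671.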

How the data were processed

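RNA-seq of sorted lymph node T cells was analysed for 12 samples, 3 in each of 4 groups, which were taken from the sample labels. The authors made libraries with a low-input kit and aligned read pairs to mm10 with STAR. The study's methods name RSEM as the source of raw counts. The deposited counts per gene were whole numbers without normalization, and their column names carry STAR and not RSEM. Tool versions, the annotation and the use of strand are not given in the sources used here. Of the 49585 identifiers, 99.5% were found in GENCODE M21 when version numbers were left off.

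The quasi-likelihood test of edgeR 4.0.16 (R 4.3.3) was run on these counts after filterByExpr, which left 13118 genes, and TMM scaling. All 12 samples entered 1 fit, each group with its own coefficient, and the comparisons share 1 estimate of the spread. Comparisons that name the same group share its samples. Standard errors came from the log2 fold change and the F statistic, and Benjamini-Hochberg adjustment covered every tested gene. The fit was tested on simulated data. Replicates were compared before they were averaged, and the chi-square per gene between them was 8.48 to 83.7, above sampling noise. The values of 83.7 and 55.1 came from pairs with CD8.2 replicate 3, the deepest library, and no other pair exceeded 31.7. The biological coefficient of variation was 11.2%.

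The genes and the lists of related genes were chosen with earlier results of these data known. Named genes were the 10 members, at most 4 called genes per list and comparison with the smallest adjusted p, the genes of the lineage check, *Foxp3*, the genes of most similar pattern, and, by position alone, genes whose exons overlap a member. *Cd14* was named after its values were seen, for its count of 0, and so were *Ly6c2* and *Il2rb*, for their levels in B6 CD8+ cells. Replicate numbers in the labels were examined as possible pairs. Same-numbered B6 CD4+ and CD8+ samples deviated together (r of 0.126, 0.138 and 0.257 over genes). A pairing would rest on the labels' numbers and this correlation alone. The main fit, which gave the p values of the results, used no pairs, and the replicate number was a block only among the alternatives. Alternatives were DESeq2 1.42.0 (size factors or Wald test), limma-voom 3.58.1, other filters on low counts, only the groups compared, the study's limits, the replicate number as a block, and each sample left out. Promoters were taken from RefSeq. Python 3.11.15 with matplotlib 3.10.9 made the figures. The processing field of the labels also names limma, whose use by the authors is not described.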

Additional observations from a re-analysis of the deposited data

Results flagged for a closer look

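The lineage difference of *Cd40lg* differed between the strains by a test of the difference itself. The log2 fold change was 6.95 between B6 CD4+ and CD8+ cells and 6.01 between CD8.1 and CD8.2 cells, a difference of −0.94 (SE 0.195, edgeR adjusted p = 0.0179). All 3 CD8.1 samples were below all 3 B6 CD4+ samples, and all 3 CD8.2 samples were above all 3 B6 CD8+ samples. The cytotoxic side of this value rests on 14 to 49 counts per sample, and the call was lost without B6 CD8 replicate 3 (−0.80, adjusted p = 0.0533), without CD8.2 replicate 2 (−0.89, adjusted p = 0.0576), without CD8.2 replicate 3 (−0.89, adjusted p = 0.103) and with limma-voom (−0.95, adjusted p = 0.143). The other 9 genes were not called in this test.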

How the results depend on the processing

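Of 970 values for 50 differences of the 10 genes, 903 kept their direction and their side of the threshold, 30 lost a call, 9 gained one and 28 changed sign, all of the last for differences that were not called. The calls of *Cd40lg*, *Tnfsf11*, *Cd200*, *Cd28*, *Icos* and *Bcl6* between lineages were kept in both strains in every other fit; by the study's limits only *Cd40lg* and *Tnfsf11* passed. By the study's limits 2 members were higher and 0 lower in each lineage comparison, and 0 were higher or lower between strains. With only the groups compared, 2 members were higher and 0 lower in CD8.1 against B6 CD4+ cells and 4 were higher in CD8.2 against B6 CD8+ cells; with limma-voom 0 were lower in the interaction. The sign of the *Cd84* difference between CD8.1 and CD8.2 cells was positive with DESeq2 size factors (0.0037), DESeq2's Wald test (0.0038), a mean of at least 1 CPM (0.012) and only the groups compared (0.0034), and *Cd200* in CD8.2 against B6 CD8+ cells was at −0.00023 with limma-voom.

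Counts over all tested genes moved more. By the study's limits they were 215 higher and 216 lower in B6 CD4+ cells, 294 and 141 in CD8.1 against CD8.2, 55 and 25 in CD8.1 against B6 CD4+, and 41 and 35 in CD8.2 against B6 CD8+ cells; in the interaction an unadjusted P under 0.05 gave 1023 and 718. With only the groups compared they were 419 and 265 in CD8.1 against B6 CD4+, and 1140 and 1373 in CD8.2 against B6 CD8+ cells. Without a filter 1178 were lower in CD8.1 against B6 CD4+, 676 higher and 917 lower in CD8.2 against B6 CD8+ cells, and 433 higher and 187 lower in the interaction. DESeq2's Wald test gave 654 higher in CD8.2 against B6 CD8+ cells, and 319 higher and 91 lower in the interaction.

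A replicate block set within strains gave 68 genes lower in the interaction in place of 38, and a block shared by the strains gave 25; the block changed no call of the 10 genes. In CD8Dual mice, r between a CD8.1 and a CD8.2 sample was −0.0039, 0.0905 and 0.119 where their replicate numbers were equal (mean 0.0686). Where the numbers were unequal it was −0.127 to 0.0321 (mean −0.0343). Whether equal numbers mark a shared origin was not tested.

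When each sample was left out in turn, 0 to 1 members (*Tnfsf8*) were lower between the lineages of each strain, members higher were 2 to 4 and lower 0 to 1 in CD8.1 against B6 CD4+ cells, 1 to 4 higher in CD8.2 against B6 CD8+ cells, and 0 to 1 lower in the interaction. Over all genes the counts were 431 to 1640 higher and 338 to 1335 lower in CD8.1 against B6 CD4+, 163 to 918 and 246 to 1014 in CD8.2 against B6 CD8+, and 148 to 779 and 18 to 599 in the interaction, the highest in each case without CD8.1 replicate 1. The lowest came without B6 CD4 replicate 1 in the first comparison, without B6 CD8 replicate 2 (163 higher, and 18 lower in the interaction) and without CD8.2 replicate 3 (246 lower, and 148 higher in the interaction). The member counts of 1 and 4 higher in CD8.2 cells came without B6 CD8 replicate 1 and without CD8.1 replicate 1. Differences that changed sign were *Slamf6* between B6 lineages (−0.039 to 0.047), *Cd84* (−0.032 to 0.013) and *Sh2d1a* (−0.11 to 0.19) between CD8Dual lineages, *Sh2d1a* (−0.22 to 0.075) and *Tnfsf8* (−0.12 to 0.15) in CD8.1 against B6 CD4+, *Cd200* (−0.21 to 0.34), *Tnfsf11* (−0.31 to 0.21) and *Tnfsf8* (−0.065 to 0.045) in CD8.2 against B6 CD8+ cells, and *Cd200* (−0.18 to 0.37) and *Tnfsf8* (−0.13 to 0.13) in the interaction. The cause of these shifts was not tested. Depth limits *Cd40lg* and *Tnfsf11* in the cytotoxic groups, where they had 14 to 49 and 20 to 29 counts per sample.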
